A study of Homo sapiens with 7 samples.

Results

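The genes described are the NF-kB pathway members, its reported target genes, and the cytokines, chemokines and chemokine receptors that pancreatic cancer cells can express. A list of 39 genes was taken, and a gene was measured where the annotation of the arrays gave a probe set to that symbol alone. This held for 36 of the 39, out of 19775 genes measured in all. BIRC3, CSF2 and BCL3 had no such probe set and were not analysed here. The 36 genes had 69 probe sets, and the one with the highest mean stands for its gene. The other 33 probe sets, which belong to 21 of the genes, were read beside it.

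RNA of Panc1 cells, an established line from a human ductal cancer of the pancreas, was measured on 7 Affymetrix expression arrays that cover the genome. All cells carried a pcDNA3.1 plasmid with a V5-His tag, either encoding the calcium-binding protein S100P or empty, and each line was grown from a single transfected cell. Arrays a and b of clone 1 and of clone 5 make up the S100P-labelled arm of 4 arrays. Arrays a and b of clone V3 and a single array of clone V1 make up the vector arm of 3. Cells were untreated and were collected before they filled the dish, so the values are resting levels with no added cytokine. Each arm rests on 2 clones, and what belongs to a clone and what belongs to its plasmid cannot be told apart within that clone. Extracellular S100P is known to bind the receptor AGER, which signals to NF-kB, and the comparison asks how the resting NF-kB and cytokine genes stood in the clones labelled S100P overexpressing.

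NF-kB is a family of dimeric transcription factors made from the subunits RELA, RELB, REL, NFKB1 and NFKB2. In resting cells inhibitors such as NFKBIA hold the dimers in the cytoplasm. A signal from TNF, interleukin-1 or a pattern receptor leads to the loss of the inhibitor, and the dimers enter the nucleus. Their targets include NFKBIA and TNFAIP3, which close the loop by shutting the signal off, and chemokines that draw neutrophils (CXCL1, CXCL8) or monocytes (CCL2). In pancreatic cancer the pathway is often active without a stimulus.

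The sequences bound by the family are well defined. Those below are shown for the chemokine genes related to CXCL1, which was called between the arms. They are also shown for those genes called between clones 1 and 5 that hold a match. They are stretches of RefSeq promoter windows of GRCh38.p14, read 5′ to 3′ on the strand of the gene, and capitals mark the match to the NF-kB consensus or, for CXCL8, to its core GGAANTTCC. The chemokine stretches are CXCL1 at chr4:73869283-73869342 (+), CXCL2 at chr4:74099245-74099304 (-), CXCL3 at chr4:74038740-74038799 (-), CXCL5 at chr4:73998740-73998799 (-), CXCL6 at chr4:73836557-73836616 (+) and CXCL8 at chr4:73740447-73740506 (+). All lie before the start of their gene.
CXCL1: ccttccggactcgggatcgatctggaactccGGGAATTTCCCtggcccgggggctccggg
CXCL2: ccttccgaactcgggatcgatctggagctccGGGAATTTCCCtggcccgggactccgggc
CXCL3: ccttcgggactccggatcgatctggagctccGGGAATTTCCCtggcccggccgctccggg
CXCL5: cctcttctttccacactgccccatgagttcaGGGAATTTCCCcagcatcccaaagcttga
CXCL6: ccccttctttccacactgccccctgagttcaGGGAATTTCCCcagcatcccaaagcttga
CXCL8: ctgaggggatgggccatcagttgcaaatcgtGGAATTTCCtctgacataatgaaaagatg

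Lined up on the match, CXCL1 and CXCL3 were identical at 55 of the 60 bases shown, CXCL1 and CXCL2 at 52, and CXCL5 and CXCL6 at 58. CXCL1 and CXCL8 shared 23 of 60 bases. CXCL1, CXCL2, CXCL3, CXCL5 and CXCL6 thus carry the same 11 capital letters, and of these 5 only CXCL1 passed the test between the arms. Whether its difference exceeds theirs was not tested.

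The second set is of genes called between the S100P-labelled clones, picked because they hold a match. They are NFKBIA at chr14:35404800-35404849 (-), REL at chr2:60881504-60881553 (+), TNFAIP3 at chr6:137867169-137867218 (+) and IL32 at chr16:3065283-3065332 (+). The search gave no match for CCL2, LIF, CXCR4 and BIRC2, which were called there too. The TNFAIP3 stretch holds 2 matches close together, parted by the lower-case letters.
NFKBIA: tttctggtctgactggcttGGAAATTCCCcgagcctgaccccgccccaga
REL: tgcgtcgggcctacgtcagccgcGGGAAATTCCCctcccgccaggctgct
TNFAIP3: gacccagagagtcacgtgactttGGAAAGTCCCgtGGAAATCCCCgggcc
IL32: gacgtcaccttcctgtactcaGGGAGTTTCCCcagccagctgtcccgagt

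Of the 39 listed genes 30 had a promoter window, from 250 bases before to 50 after the start, and some had several, 44 in all. Searched on both strands, the NF-kB consensus or the core was in the windows of 17 of the 30 genes and in 40.9% of the 44 windows. It was in 6.62% of the 35116 windows of all genes. The core alone, which overlaps the consensus, was in 22.7% of the 44 and 0.965% of all windows. The list was drawn up from reported NF-kB targets, so that share describes the list and supports nothing. TNFAIP2, RELA, CXCR4, BIRC2 and TNF had no match in their windows, which says only that these letters are not there.

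The arrays of a clone correlated at r = 0.996 to 0.998 across all probe sets. Keratin 8 and keratin 18, keratins of simple epithelium, and vimentin were read at log2 10.59 or more on every array. The epithelial marker CDH1 was uneven, at 7.36 to 7.79 on the S100P-labelled arrays, 6.17 and 6.36 in V3 and 3.83 in V1. Of the leukocyte, fibroblast and endothelial markers, 9 of the 15 measured, among them PTPRC, COL1A2 and CDH5, lay below the median of each array. Above it on every array were COL1A1 at 6.72 to 7.42, PECAM1 at 5.23 to 6.08 and ITGAM at 5.00 to 5.47. CD14 was called higher in clone 5 than in clone 1 and than in the vector clones. COL1A1 was called higher in clone 1 than in the vector clones. These are 16.7% of the leukocyte and 20% of the fibroblast markers, beside 3.02%, 8.59% and 17.5% of all genes in these comparisons. The summed log2 level of the 6 leukocyte markers was 23.1 to 24.7 on the S100P-labelled arrays and 23.7 to 24.1 on the vector arrays. It was 22.0 to 23.1 against 21.6 to 22.4 for the 5 fibroblast markers and 15.4 to 16.7 against 15.6 to 16.0 for the 4 endothelial ones. The S100P probe set read 5.36 to 5.95 on the S100P-labelled arrays, 5.65 and 6.01 in V3 and 4.65 in V1. Its difference between the arms was 0.27 (SE 0.32, limma adjusted p = 0.846), and the arms overlapped. Against the vector clones it was 0.64 in clone 1 (limma adjusted p = 0.0164) and 0.17 in clone 5 (limma adjusted p = 0.533). The probe set does not check the labels, since whether it reads the plasmid's transcript is unknown, and directions are given by label.

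Values are log2 RMA values as deposited, and a difference of 1 is a 2-fold change. The array medians were 4.51 to 4.58, and 9 of the 36 genes lay below the median on all 7 arrays: PTGS2, TNF, IL6, CXCL2, CXCL3, CXCL5, CXCL6, CCL20 and ACKR3. Another 16 read 6 or more on all 7 arrays. So TNF and IL6, the classic cytokines of the pathway, were at the dim end in these untreated cells, while NFKBIA, RELA, BIRC2, CCL2, LIF, CSF1, ICAM1 and TNFAIP2 read 8 or more on every array. Differences of the dim probe sets are compressed on this platform, and a probe set near the bottom may read no transcript at all.

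**Figure D1:**
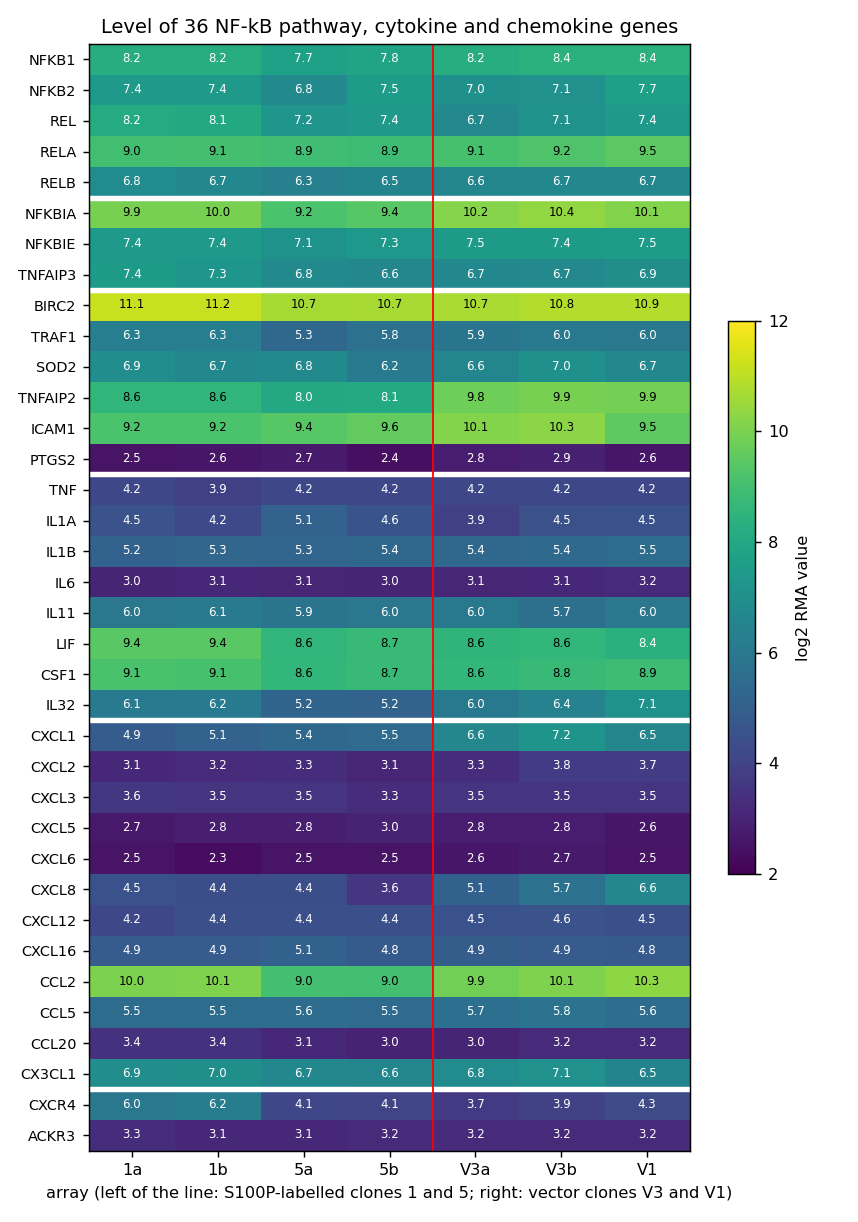
Log2 RMA value (colour and printed number) of the 36 genes in rows, by role from NF-kB subunits at the top to chemokine receptors at the bottom, on each of the 7 arrays in columns. The rows of TNFAIP2, CXCL1 and CXCL8 are lower on all 4 S100P-labelled arrays than on the 3 vector arrays, while CXCR4, LIF and CCL2 change between clones 1 and 5.

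Between the arms, 2 of the 36 genes passed the test and both fell in the S100P-labelled clones: TNFAIP2 and the neutrophil chemokine CXCL1. That is 5.56% of the genes, where 1.55% of all 19775 genes passed, and 0.526% passed as lower (limma with clone as a random block, Benjamini-Hochberg adjustment over all probe sets at 0.05). Both calls were already known when the genes were chosen. In bulk RNA, fewer cells that express a gene and less of its RNA per cell cannot be told apart. The values of 12 genes were higher and those of 24 lower. The median log2 difference was -0.07, beside -1e-04 over all genes, and the mean was -0.18, beside 0.03. By unadjusted p under 0.05, 10 of the 36 passed, and 2977 of all 19775 genes. The 4 S100P-labelled arrays lay wholly below the 3 vector arrays for 9 genes, 25% of the 36, where this held for 5.51% of all genes. They lay wholly above for 0 of the 36, beside 8.67% of all genes. The 9 genes were TNFAIP2, CXCL1, CXCL8, NFKBIA, NFKBIE, NFKB1, RELA, CCL5 and CXCL12. With the arrays of each clone averaged, which leaves 2 values against 2, 0 of the 36 passed in limma and 5 had an unadjusted p under 0.05, and of all 54613 probe sets only 8 passed. Without clone V3 0 of the 36 passed, with 6 at an unadjusted p under 0.05, while 1675 of all probe sets passed, beside 611 with every array in.

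**Figure D2:**
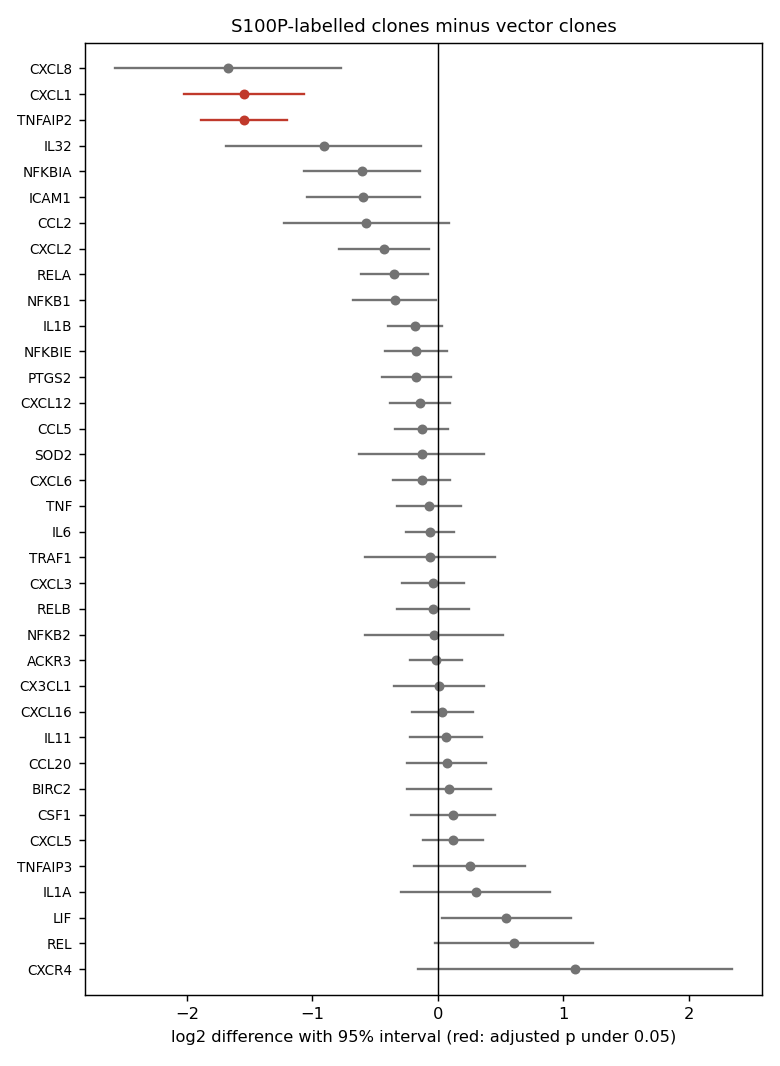
Log2 difference of the S100P-labelled clones minus the vector clones (x axis) with its 95% interval for the 36 genes (y axis), from limma with clone as a random block, 4 against 3 arrays. Red marks an adjusted p under 0.05, which only TNFAIP2 at -1.54 and CXCL1 at -1.55 reached, while CXCL8 at -1.67 has a wide interval.

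TNFAIP2, a TNF-induced gene linked to membrane protrusions and tunnelling nanotubes, fell furthest relative to its error. It read 8.57 and 8.58 in clone 1, 8.05 and 8.13 in clone 5, 9.79 and 9.93 in V3 and 9.90 in V1. The arms did not overlap, and V1 lay within the pair of V3. The mean was 8.33 ± 0.28 (SD, n = 4) against 9.87 ± 0.08 (SD, n = 3), a fitted log2 difference of -1.54 (SE 0.15, 2.92-fold lower, limma adjusted p = 0.00406). The call held with any 1 array left out but not without clone V3 (-1.57, adjusted p = 0.0515), nor with the arrays of a clone averaged (-1.55, adjusted p = 0.262). Over its alternatives the adjusted p ran from 0.00175 to 0.262 and the difference from -1.78 to -1.30. The other TNFAIP2 probe set read 5.34 and 5.32 in clone 1, 6.07 and 5.78 in clone 5, 6.17 and 6.31 in V3 and 5.93 in V1. There clone 5 overlapped the vector arrays, and the log2 difference of -0.49 (SE 0.20, adjusted p = 0.380) was not called.

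CXCL1, a ligand of CXCR2 that attracts neutrophils, was the one chemokine gene of 12 that passed. Its only probe set read 4.91 and 5.13 in clone 1, 5.37 and 5.49 in clone 5, 6.65 and 7.17 in V3 and 6.55 in V1. The arms were apart by more than 1 log2 unit, and clone 1 was the lower of the S100P-labelled clones. The fitted difference was -1.55 (SE 0.21, 2.92-fold lower, limma adjusted p = 0.0159, 4 against 3 arrays). The call was lost without array 5a, 5b or V3a, at an adjusted p of 0.0501, 0.0689 and 0.0592, and without clone V3, at 0.0615. Over its alternatives the adjusted p ran from 0.00723 to 0.290, and the difference stayed between -1.78 and -1.33.

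CXCL8, interleukin-8, the other main neutrophil chemokine, had the lowest log2 difference of the 36 but did not pass. It read 4.52 and 4.39 in clone 1, 4.39 and 3.59 in clone 5, 5.12 and 5.72 in V3 and 6.63 in V1. The arms did not overlap, but the vector arrays were spread over more than 1 log2 unit and array 5b stood below the rest. All S100P-labelled arrays read below the array median, 1a only just, so the size of the difference is uncertain. The difference was -1.67 (SE 0.39, adjusted p = 0.106, 95% interval -2.57 to -0.77). The other CXCL8 probe set gave -0.50 (SE 0.29, adjusted p = 0.588).

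The near relatives of CXCL1 were not called. CXCL2 read 3.13, 3.22, 3.29 and 3.06 on the S100P-labelled arrays and 3.29, 3.76 and 3.73 on the vector arrays, a difference of -0.43 (adjusted p = 0.315). CXCL3, CXCL5 and CXCL6 differed by -0.04, 0.12 and -0.13, and none was called. These 4 probe sets lay below the array median throughout, so differences between resting levels may be compressed there and their size is uncertain. For CXCL2 the 95% interval was -0.79 to -0.07. Each S100P-labelled clone stood at -0.45 against the vector clones, not called. Its other probe sets differed by -0.15 and 0.16 between the arms, not called. The monocyte chemokine CCL2 read 10.01 and 10.08 in clone 1, 9.02 on both clone 5 arrays, 9.88 and 10.06 in V3 and 10.31 in V1. Clone 1 thus lay inside the range of the vector arrays and clone 5 below it, and the arm difference of -0.57 (SE 0.29, adjusted p = 0.501) was not called. The T-cell chemokine CCL5, CXCL12, CXCL16, CCL20 and the membrane-bound chemokine CX3CL1 had differences between -0.14 and 0.07, not called.

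Among the 5 subunits none passed. NFKB1, which encodes the p50 precursor, read 8.23 and 8.23 in clone 1, 7.72 and 7.84 in clone 5, 8.24 and 8.39 in V3 and 8.40 in V1, a difference of -0.34 (SE 0.14, adjusted p = 0.397). RELA, the main activating subunit, read 8.96, 9.05, 8.93 and 8.86 on the S100P-labelled arrays and 9.10, 9.25 and 9.50 on the vector arrays, a difference of -0.35 (SE 0.12, adjusted p = 0.272). Both genes had all S100P-labelled arrays below all vector arrays, for NFKB1 by less than the arrays of clone 5 differed from each other. REL, the subunit best known from lymphocytes, read 8.15 and 8.08 in clone 1, 7.20 and 7.39 in clone 5, 6.69 and 7.11 in V3 and 7.39 in V1. Its difference of 0.61 (SE 0.28, adjusted p = 0.439) came with clone 1 alone standing above every vector array. NFKB2 and RELB, the subunits of the alternative pathway, differed by -0.03 and -0.04. NFKB2 read 7.36 and 7.42 in clone 1, 6.80 and 7.49 in clone 5, 7.03 and 7.08 in V3 and 7.67 in V1, so the arms overlapped.

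None of the 3 measured inhibitors passed between the arms. NFKBIA, the inhibitor that NF-kB itself induces, read 9.93 and 9.96 in clone 1, 9.17 and 9.38 in clone 5, 10.18 and 10.38 in V3 and 10.12 in V1. All S100P-labelled arrays were below all vector arrays, clone 1 narrowly and clone 5 by more. The difference was -0.61 (SE 0.20, adjusted p = 0.273), and without clone 1 it was -0.97 (adjusted p = 0.0220). In that fit the S100P-labelled arm was clone 5 alone, and the fitted correlation within a clone was negative (-0.418). The adjusted p of that fit may thus be too small. TNFAIP3, the ubiquitin-editing enzyme A20 that ends the signal, read 7.44 and 7.26 in clone 1, 6.79 and 6.65 in clone 5, 6.67 and 6.69 in V3 and 6.93 in V1, a difference of 0.25 (SE 0.19, adjusted p = 0.718). NFKBIE, a second inhibitor of the family, differed by -0.17.

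Of the effector genes other than TNFAIP2, ICAM1, an adhesion receptor for leukocyte integrins, came nearest. It read 9.17 and 9.18 in clone 1, 9.41 and 9.61 in clone 5, 10.15 and 10.25 in V3 and 9.53 in V1. V3 stood above all other arrays and V1 within clone 5, and the difference was -0.59 (SE 0.20, adjusted p = 0.265). Without V1 it was -0.86 (adjusted p = 0.0237). In that fit the vector arm was clone V3 alone, and the fitted correlation within a clone was 0.00901. The fit called 1708 of all probe sets, beside 611 with every array in, and its adjusted p may be too small. Over the other ICAM1 probe sets the difference was -0.79 and -0.80, not called. BIRC2, an inhibitor of apoptosis, read 11.15 and 11.16 in clone 1, 10.65 and 10.68 in clone 5, 10.75 and 10.84 in V3 and 10.86 in V1. Clone 1 was above and clone 5 below every vector array. BIRC2, the adaptor TRAF1, the mitochondrial enzyme SOD2 and PTGS2, the inducible cyclooxygenase, differed by 0.09, -0.06, -0.13 and -0.17.

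None of the 8 measured cytokines passed between the arms. IL32, a proinflammatory cytokine, read 6.11 and 6.17 in clone 1, 5.21 and 5.17 in clone 5, 6.03 and 6.43 in V3 and 7.11 in V1, a difference of -0.91 (SE 0.34, adjusted p = 0.332). Clone 1 lay between the V3 arrays and clone 5 below every other array. LIF, a cytokine of the interleukin-6 family that pancreatic cancers secrete, read 9.43 and 9.45 in clone 1, 8.57 and 8.74 in clone 5, 8.56 and 8.63 in V3 and 8.36 in V1, a difference of 0.55 (SE 0.23, adjusted p = 0.386). Here clone 1 stood above all other arrays, while clone 5 overlapped V3. IL6 read 3.02, 3.12, 3.08 and 3.04 on the S100P-labelled arrays and 3.06, 3.13 and 3.19 on the vector arrays, which overlapped, with a difference of -0.07. TNF, IL1A, IL1B, IL11 and the macrophage growth factor CSF1 had differences between -0.18 and 0.30, not called. The other IL11 probe set read 6.32 and 6.28 in clone 1, 5.35 and 5.34 in clone 5, 4.72 and 5.04 in V3 and 5.07 in V1. There all S100P-labelled arrays were above all vector arrays, clone 1 by more, and the difference of 0.87 (SE 0.27, adjusted p = 0.231) was not called.

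CXCR4, the receptor of CXCL12 and a driver of cell migration, had the largest positive difference and also the largest spread. It read 6.02 and 6.25 in clone 1, 4.12 and 4.07 in clone 5, 3.70 and 3.93 in V3 and 4.34 in V1. At this probe set only clone 1 stood above the vector arrays, and clone 5 lay within them. The clone 5 and vector arrays read below the array median here, so the size of the difference is uncertain. The arm difference of 1.09 (SE 0.55, adjusted p = 0.499) was not called, and without clone 5 it was 2.16 (adjusted p = 0.0162). In that fit the S100P-labelled arm was clone 1 alone, and the fitted correlation within a clone was negative (-0.123). The adjusted p of that fit may thus be too small. Another CXCR4 probe set read 6.41 and 6.66 in clone 1, 3.47 and 3.55 in clone 5, 3.23 and 3.33 in V3 and 3.05 in V1. There all S100P-labelled arrays were above all vector arrays, clone 5 narrowly, and the difference of 1.83 (SE 0.78, adjusted p = 0.407) was not called. At the remaining probe set the arms overlapped, with a difference of 0.76, not called. ACKR3, the atypical receptor of CXCL12, differed by -0.02 near the bottom of the scale.

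**Figure D3:**
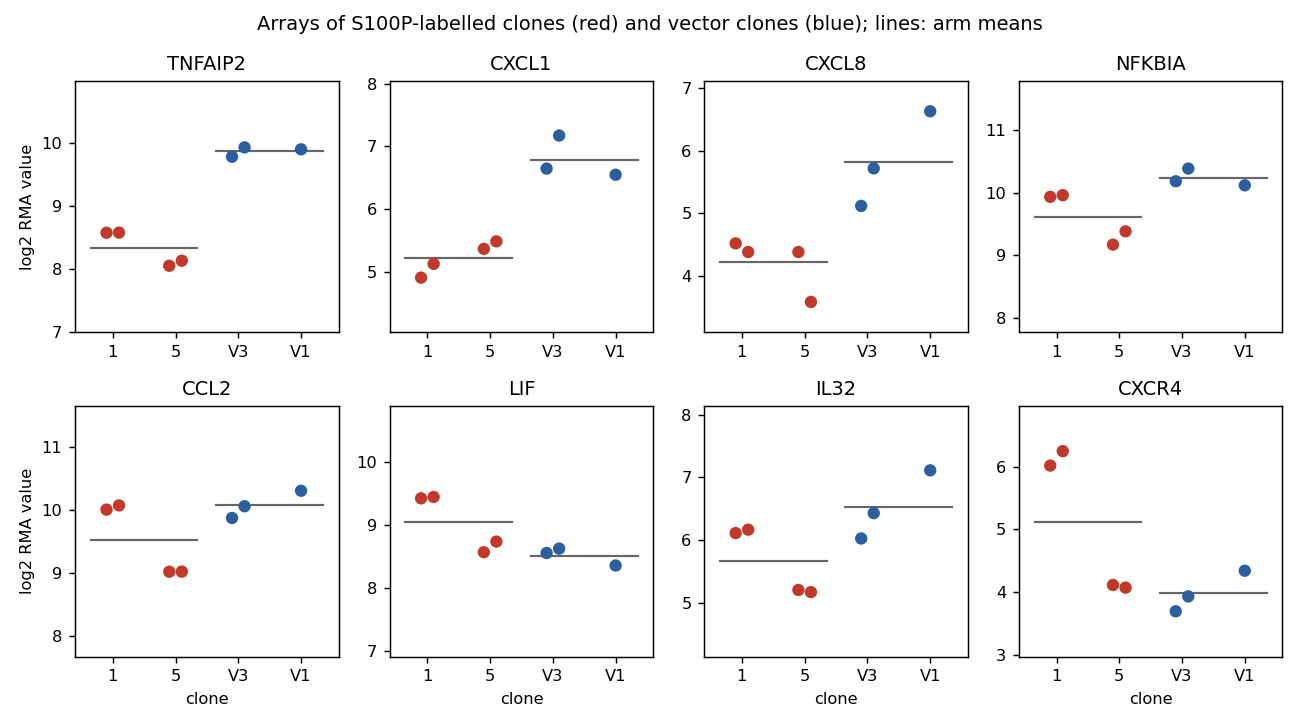
Log2 RMA value (y axis, the same span of 4 units in each panel) of 8 genes by clone (x axis), with 1 point per array, red for S100P-labelled clones and blue for vector clones, and lines at the arm means. TNFAIP2 and CXCL1 part by arm, whereas LIF and CXCR4 are highest in clone 1 and CCL2 and IL32 lowest in clone 5.

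Clones 1 and 5 were next set against each other, in a fit whose error is the spread between arrays of 1 clone. Clone 5 was lower than clone 1 for 8 of the 36 genes and higher for none, where 3.02% of all genes passed in either direction, 2.35% of them as lower. The 8 are 22.2% of the 36. They came from every role: the subunit REL, the inhibitors NFKBIA and TNFAIP3, the survival gene BIRC2, the cytokines LIF and IL32, the chemokine CCL2 and the receptor CXCR4. The values of 26 genes were lower and those of 10 higher in clone 5, with a median of -0.22 beside 0.02 over all genes. This fit took the 4 clones as fixed effects, with 3 residual degrees of freedom, and what it compares is single clones rather than conditions. With any 1 array of clones 1, 5 or V3 left out, which leaves 2 residual degrees of freedom, limma called 0 of the 36, with 13 to 17 at an unadjusted p under 0.05. It then called 0 of all 54613 probe sets too, so this 0 says nothing about these genes in particular.

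CXCR4 was 4.11-fold lower in clone 5 than in clone 1 (-2.04, SE 0.12, limma adjusted p = 0.00115, arrays a and b of each clone). It was called lower at its other probe sets too, by 8.15-fold and 2.43-fold. CCL2 was 2.03-fold lower (-1.02, SE 0.10, adjusted p = 0.00585) and IL32 1.93-fold lower (-0.95, SE 0.14, adjusted p = 0.0211). LIF was 1.72-fold lower (-0.78, SE 0.10, adjusted p = 0.0128). For all 4 genes the arrays of a clone lay far closer to each other than to those of the other clone.

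The feedback inhibitors moved by less. NFKBIA was 1.59-fold lower in clone 5 (-0.67, SE 0.11, adjusted p = 0.0368) and TNFAIP3 1.54-fold lower (-0.63, SE 0.10, adjusted p = 0.0328). The other NFKBIA probe set gave 0.075 (adjusted p = 0.847), the opposite sign, and the other TNFAIP3 probe set gave -0.84 (adjusted p = 0.0550). REL was 1.77-fold lower (-0.82, SE 0.15, adjusted p = 0.0430). It was also called lower at 2 of its other 4 probe sets, by 1.96-fold and 1.50-fold, and not at the remaining ones, at -0.30 and -0.28. BIRC2 was 1.40-fold lower (-0.49, SE 0.09, adjusted p = 0.0421). CX3CL1 and IL11 were not called at the probe set that stands for them, at -0.30 and -0.11. They were called lower in clone 5 at another one, by 1.80-fold and 1.94-fold. TRAF1 (-0.71, adjusted p = 0.0637), NFKB1 (-0.44, adjusted p = 0.0743), CSF1 (-0.43, adjusted p = 0.0743) and TNFAIP2 (-0.49, adjusted p = 0.0539) were not called, and the other TNFAIP2 probe set gave the opposite sign (0.59, adjusted p = 0.0570).

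The clones also differed in their epithelial markers and in the control of RNA quality. Keratin 8 (KRT8) read 10.63 and 10.59 in clone 1 and 11.61 and 11.92 in clone 5, and keratins 8, 18 and 19 were called higher in clone 5, 3 of the 7 epithelial and Panc1 markers. The 3 called are 42.9% of the 7, beside 3.02% of all genes. Of the 7, 4 had higher and 3 lower values in clone 5. Among the latter were EPCAM (9.37 and 9.34 against 8.97 and 8.89) and CDH1 (7.79 and 7.66 against 7.36 and 7.37), neither called. Against the vector clones 5 of the 7 were called in clone 1 and 2 in clone 5, with CDH1 alone higher in each. In V1 minus V3, 3 were called, all lower, with CDH1 at -2.43. These shares are 71.4%, 28.6% and 42.9%, beside 17.5%, 8.59% and 7.72% of all genes. Between the arms 0 of the 7 were called. The 3′ minus 5′ difference of the ACTB controls was 0.53 and 0.44 in clone 1, 0.29 and 0.27 in clone 5, 0.28 and 0.32 in V3 and 0.18 in V1. That of GAPDH was 0.08, 0.08, 0.07 and 0.06 on the S100P-labelled arrays, 0.09 and 0.14 in V3 and 0.01 in V1. The part of either in the differences between clones was not tested.

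**Figure D4:**
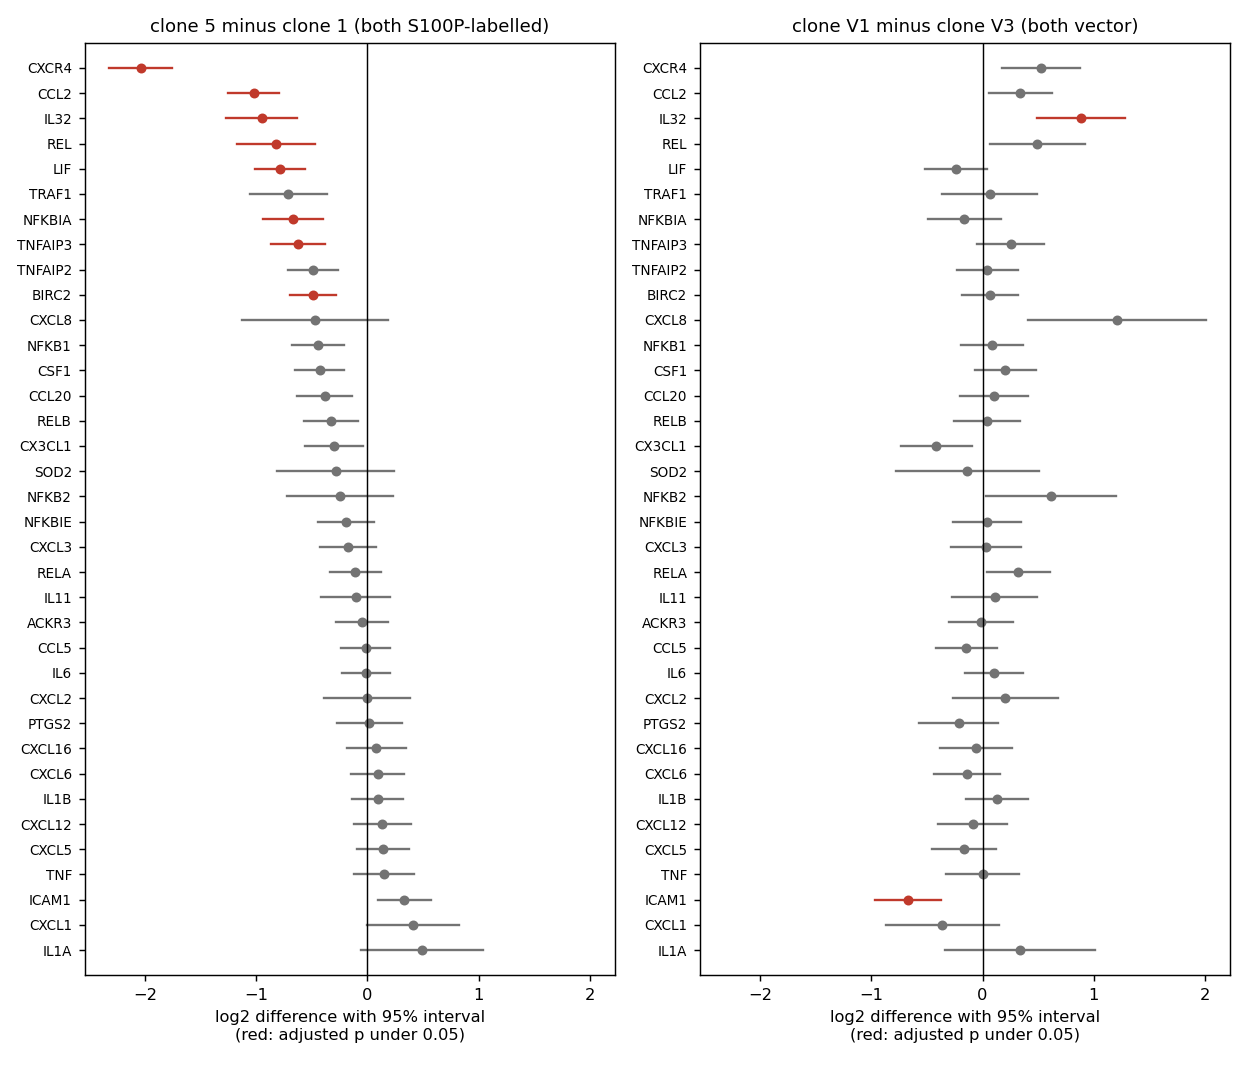
Log2 difference (x axis) with its 95% interval for the 36 genes (y axis, same order in both panels), clone 5 minus clone 1 on the left and clone V1 minus clone V3 on the right, from limma with the 4 clones as fixed effects. Red marks an adjusted p under 0.05, reached by 8 genes on the left, all below 0 and led by CXCR4 at -2.04, and on the right by ICAM1 at -0.67 and IL32 at 0.88.

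The clones labelled vector differed from each other at 2 of the 36 genes, 5.56%, where 7.72% of all genes passed. The share was thus near that of all genes. ICAM1 was lower in V1 than in V3 (-0.67, SE 0.13, 1.59-fold, adjusted p = 0.0279) and IL32 higher (0.88, SE 0.17, 1.85-fold, adjusted p = 0.0294). V1 is 1 array and was assumed to vary like the other clones. With any other array left out limma called 0 of the 36, with 6 to 9 at an unadjusted p under 0.05. Of all 54613 probe sets it called 0 without 1a, 1b, V3a or V3b and 909 without 5a or 5b. CXCL8 was 1.21 higher in V1 (SE 0.34, adjusted p = 0.0949), and at its other probe set it was called higher, by 2.24-fold. Also at another probe set, CSF1 was called higher in V1 (0.80, adjusted p = 0.0123) and CX3CL1 lower (-0.81, adjusted p = 0.0169). The other ICAM1 probe sets were lower in V1 but not called (adjusted p = 0.0556 and 0.311). The S100P probe set itself was lower in V1 than in V3 (-1.19, adjusted p = 0.0104).

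Set against the vector clones 1 at a time, clone 1 had 10 genes called and clone 5 had 8. The 10 are 27.8% of the 36, 5 higher and 5 lower, where 17.5% of all genes were called, 11.7% higher and 5.75% lower. The 8 are 22.2% and all lower, where 8.59% of all genes were called and 2.94% as lower. Both comparisons use the same vector arrays, so their values are only placed side by side. TNFAIP2 differed from the vector clones by -1.31 in clone 1 and -1.79 in clone 5, CXCL1 by -1.71 and -1.30, CXCL8 by -1.57 and -2.04, and IL32 by -0.53 and -1.48, all called. These 4 are the genes called in both.

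At the probe sets that stand for the genes, the other calls belonged to 1 clone each. Called higher in clone 1 were 5 genes, CXCR4 by 2.05, REL by 0.97, LIF by 0.96, TNFAIP3 by 0.54 and BIRC2 by 0.32, and ICAM1 was called lower at -0.69. In clone 5 the same 6 stood at 0.02, 0.15, 0.18, -0.09, -0.16 and -0.36, none called. In clone 5 CCL2 at -1.12, NFKBIA at -0.92, NFKB1 at -0.58 and RELA at -0.44 were called lower, and in clone 1 they stood at -0.10, -0.25, -0.13 and -0.33, none called. At its other probe set RELA was called lower in both clones, at -0.44 (adjusted p = 0.0355) and -0.51 (adjusted p = 0.0349), and NFKBIA in neither, at -0.22 and -0.14. IL11, not called at the probe set that stands for it, was called higher in clone 1 at its other one (1.33, adjusted p = 5.84e-04) and not in clone 5 (0.37, adjusted p = 0.108). CX3CL1 was called in both clones at its other probe set only, higher in clone 1 (0.42, adjusted p = 0.0347) and lower in clone 5 (-0.43, adjusted p = 0.0486). Of the 10 genes called in 1 clone only, CXCR4, REL, LIF, TNFAIP3, BIRC2, CCL2 and NFKBIA were also called in clone 5 minus clone 1, which tests the difference itself, while ICAM1, NFKB1 and RELA were not. Leaving out array 1a or 1b left 2 calls for clone 1, while the calls over all probe sets went from 7012 to 772 and 914. For clone 5, 1 call was left without 5a or 5b, 3 without 1a or 1b and 5 without V3a or V3b, while those over all probe sets went from 3684 to between 178 and 1345. The calls of TNFAIP2 in both clones and of CXCR4 in clone 1 held in each of the 11 alternatives run for them, none of which turned to the other TNFAIP2 probe set. That one was called lower in clone 1 (-0.75, adjusted p = 0.00525) but not in clone 5 (-0.16, SE 0.11).

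The genes upstream of NF-kB were read from a list of 40 receptors, adaptors, kinases and regulators, of which 37 were measured. Between the arms 1 was called higher and 1 lower, 5.41% of the 37, where 1.55% of all genes passed. TNFRSF1A, the main TNF receptor, read 10.32 and 10.36 in clone 1, 10.13 and 10.40 in clone 5, 9.52 and 9.65 in V3 and 9.54 in V1, with no overlap of the arms. It rose by 0.73 (SE 0.11, 1.66-fold, adjusted p = 0.0189). MYD88, the adaptor of the interleukin-1 and Toll-like receptors, read 8.56, 8.57, 8.60 and 8.59 on the S100P-labelled arrays and 9.10, 9.22 and 9.04 on the vector arrays. It was 1.45-fold lower (-0.53, SE 0.09, adjusted p = 0.0298), and its clones within an arm were close. Both calls were lost with the arrays of each clone averaged (adjusted p = 0.265 and 0.404). TNFRSF1A was also lost without array 5b, V3a or V3b, at 0.0791, 0.101 and 0.0787, without clone V3 at 0.0607 and with dim probe sets left out at 0.0553. MYD88 was also lost without 1b, 5a, 5b, V3a or V3b, at 0.0543 to 0.135, with dim probe sets left out at 0.0970 and with an intensity trend at 0.0501. AGER, the receptor reported for S100P, read 4.47 to 4.68 on the S100P-labelled arrays and 4.51 to 4.80 on the vector arrays, near the array median, and differed by -0.02.

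Against the vector clones 11 of these 37 were called in clone 1, 8 higher and 3 lower. In clone 5 it was 6, 5 higher and 1 lower. These are 29.7% and 16.2%, beside 17.5% and 8.59% of all genes. In clone 5 minus clone 1, 3 of the 37 were called. The nuclear inhibitor NFKBIZ was higher by 0.60, and IRAK2, a kinase below MYD88, and the deubiquitinase CYLD were lower, at -0.57 and -0.71. Of 17 receptors of the listed cytokines 16 were measured and 0 were called between the arms, with 1 at an unadjusted p under 0.05. Between clones 5 and 1 also 0 were called, again with 1. Of all genes, 1.55% and 3.02% passed in these comparisons. CXCR2, the receptor of CXCL1 and CXCL8, read 2.80 to 3.15 on all arrays, at the bottom of the scale.

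Of 26 other genes reported as NF-kB induced 25 were measured. Between the arms 1 was called, 4% of the 25, where 1.55% of all genes passed. The values of 15 were higher and those of 10 lower, with a median of 0.02 beside -1e-04 over all genes. IL15, a cytokine that sustains T and natural killer cells, read 2.20, 2.52, 2.74 and 2.87 on the S100P-labelled arrays and 4.14, 4.70 and 4.22 on the vector arrays, and was lower, at -1.76 (SE 0.21, adjusted p = 0.0112). The arms were far apart for a probe set this dim, and the other IL15 probe set was 1.51-fold lower and not called (adjusted p = 0.0611). Its S100P-labelled arrays were well below the array median, so the size of the change is uncertain. The call was lost without array 5b (adjusted p = 0.0553), without clone V3 (adjusted p = 0.0542) and with the arrays of each clone averaged (adjusted p = 0.241). Between clones 5 and 1, the stress gene GADD45B and the interferon regulatory factor IRF1 were lower in clone 5, at -0.83 and -0.87. These calls are 8% of the 25, where 3.02% of all genes passed. Against the vector clones 7 of the 25 were called in clone 1. Of these 6 were higher, GADD45B, PLAU, SDC4, BCL2L1, BCL2A1 and XIAP, and IL15 was lower. In clone 5 the 2 called were IRF1 and IL15, both lower. These shares are 28% and 8%, beside 17.5% and 8.59% of all genes.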

How the data were processed

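The deposited table holds log2 values of 54675 probe sets on 7 arrays, made by the authors with RMA, per the submitters' processing notes. The RMA version is not given in the sources used, nor is it said if all arrays went through it at once. That the scale is log2 was read from the values. Leaving out 62 controls, 54613 probe sets were tested in R 4.3.3 with limma 3.58.1 and statmod 1.5.0. Of these, 41091 carried 1 gene symbol, 1801 several and 11721 none.

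The arm fit had group as the fixed effect and clone as a random block (consensus correlation 0.287, the same for every probe set, so that adjusted p-values may be too small where clones of an arm differ). A second fit had the 4 clones as fixed effects. All tests are two-sided; p-values were adjusted by Benjamini-Hochberg over the tested probe sets, with 0.05 as threshold. Both fits were tested on simulated data. Nothing in the labels tells if the arrays of 1 clone stem from separate cultures, and the p-values then measure a spread that may be technical.

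Genes named with values on every array were those called in a comparison, those of the 4 largest differences in each, and NFKBIA, NFKB1, RELA, TNFAIP3, CXCL8 and IL6. CXCL2 was added after its values were seen. The genes and lists were chosen with earlier results of these data known. No detection calls were used. Array number limits the precision. Alternatives were single arrays or clones left out, no block, averaged clones, a filter at log2 6, 2 scalings, an intensity trend and another choice of probe set. Figures used matplotlib.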

Additional observations from a re-analysis of the deposited data

Results flagged for a closer look

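In a group of 4 arrays, 1 array can stand apart from the rest by more than Dixon's limit, and chance alone marks about 1 in 20 groups. This happened at 4 of the 36 genes in the S100P-labelled arm, each time with the odd array low. TNF read 3.88 on array 1b and 4.17 to 4.18 on the others. CXCL8 read 3.59 on array 5b and 4.39 to 4.52 on the others. CXCL6 read 2.35 on array 1b and 2.53 to 2.54 on the others, and CXCL12 read 4.18 on array 1a and 4.43 to 4.44 on the others. All 4 genes were below log2 5 in this arm.

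The second kind of mark is a difference between the S100P-labelled clones that passed its own test, which holds for 8 genes. As log2 differences of clone 5 minus clone 1 they are CXCR4 at -2.04, CCL2 at -1.02, IL32 at -0.95, REL at -0.82, LIF at -0.78, NFKBIA at -0.67, TNFAIP3 at -0.63 and BIRC2 at -0.49. All rest on arrays a and b of each clone.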

How the results depend on the processing

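No paired analysis was possible because the letters a and b name arrays of 1 clone and do not match arrays across the arms. Of the 36 genes, 2 passed between the arms. This became 0 with the arrays of each clone averaged, 0 without clone V3, 5 without clone 1 (all lower) and 4 without clone 5 (2 higher, 2 lower), and 1 to 3 with single arrays left out. The 8 of clone 5 minus clone 1 became 0 to 8 with single arrays left out. They became 12 with dim probe sets left out, and 12 with each array centred on its median. The 2 of V1 minus V3 became 5 with dim probe sets left out and 0 to 0 with single arrays left out. The 10 of clone 1 and the 8 of clone 5 against the vector clones became 2 to 8 and 1 to 5. Fewer arrays leave fewer residual degrees of freedom, and otherwise the cause was not tested. With any 1 clone left out, V1 and V3 included, an arm holds arrays of 1 clone. The fitted correlation within a clone was negative without clone 1 or clone 5 (-0.418 and -0.123). It was 0.17 without V3 and 0.00901 without V1. The adjusted p-values of those fits may be too small. The called difference that reversed was NFKBIA in clone 5 minus clone 1, which was 0.075 at its other, dimmer probe set. The other alternatives run moved each count by less than leaving out arrays did at most. TNFAIP2 and CXCL1 stayed lower between the arms in all 17. Uncalled arm differences changed sign 37 times. Neither rescaling moved the median of all probe sets by 0.1. Signal near background limits PTGS2, TNF, IL6, CXCL2, CXCL3, CXCL5, CXCL6, CCL20 and ACKR3. It also limits CXCL8 on the S100P-labelled arrays and CXCR4 on the clone 5 and vector arrays, which read below the array median.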
